A study of Homo sapiens with 2 samples.

Results

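Proteasome genes were described in 2 RNA-seq libraries of OCI-AML3, a human acute myeloid leukaemia cell line. The genes were taken by symbol: every protein-coding gene whose name starts with PSMA, PSMB, PSMC, PSMD, PSME, PSMF or PSMG and a digit. This gave 50 of the 60623 genes in the count tables. Of these, 48 encode core or regulatory subunits, activators, an inhibitor or assembly factors of the proteasome, and 2 (PSMC3IP and PSME3IP1) encode proteins named for an interaction with a member. A gene was measured where its counts in both libraries summed to at least 20, which held for 46 of the 48 genes and for 15660 genes in all, 12260 of them protein-coding. PSMA8 and PSMB11, which encode the testis and thymus forms of a core subunit, had 0 counts in both libraries.

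The proteasome is the large protease that degrades proteins tagged with ubiquitin chains. Its barrel-shaped core (20S) is built from rings of alpha and beta subunits and holds the proteolytic sites inside. A regulatory particle (19S) caps the barrel: its base has a ring of ATPases that unfold substrates, and its lid removes the ubiquitin chain. In blood cells and in cells exposed to interferon, PSMB8, PSMB9 and PSMB10 replace the constitutive catalytic subunits PSMB5, PSMB6 and PSMB7, giving the immunoproteasome, which produces peptides for presentation by MHC class I molecules.

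The line was labelled as wild-type and as derived from bone marrow. The medium was MEM alpha and held 20% serum. Omipalisib (GSK2126458), an inhibitor of PI3 kinases and mTOR, was given at 50 nM, and control cells received its vehicle DMSO, both over 24 h. Each condition had 1 library of this line, so no difference has a replicate check and no test was possible. Every difference compares these libraries, not the conditions. The intervals are 95% exact intervals and cover counting error only. Total counts were 26367832 in DMSO and 22599164 in omipalisib. Of 8 myeloid marker genes, 7 reached 1 CPM (counts scaled to the library total) in DMSO and 8 in omipalisib, with summed levels of 1199 and 1358 CPM. Of 9 erythroid and megakaryocyte markers, 6 were at 0 in both libraries, ALAS2, GP9, HBA2, HBB and PF4 among them, and the summed levels were 2.69 and 2.57 CPM. Of 8 lymphoid markers, CD3D, CD3E, CD3G and MS4A1 were at 0, and the summed levels of 97.1 and 106 CPM came almost wholly from NCAM1, at 94.2 CPM in DMSO. Of 8 stromal and epithelial markers, CDH5 was at 0, and COL1A2, at 95.1 CPM in DMSO, made up most of the summed 111 and 99.3 CPM. Their part in the results was not tested.

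Nearly all proteasome genes had a lower share of the counts in the omipalisib library than in DMSO. The 46 measured genes summed to 148203 counts in DMSO, 0.562% of that library, and to 95178 in omipalisib, 0.421%. On libraries scaled by the trimmed mean of M-values (TMM), the log2 ratio of the summed counts, omipalisib over DMSO, was −0.47 (−0.48 to −0.45). Being relative, this ratio cannot separate less proteasome RNA per cell from a change in the rest of the RNA or in the mix of cells. Single genes ran from −0.75 for PSMA3 to 0.054 for PSMF1, with a median of −0.43. Beside this stood medians of 0.0029 over all measured genes and −0.030 over the measured protein-coding genes. For protein-coding genes whose counts summed to 1000 or more the median was −0.077. The ratio was below 0 for 44 of the 46 proteasome genes.

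Counting error left few of the genes unresolved. For 41 of the 46 the interval lay below 0, for 0 above it, and for 5 it held 0 (PSMD9, PSMB10, PSMG2, PSMG4 and PSMF1). By the same rule 28.6% of all measured genes were lower and 26.1% higher. Depth makes the intervals of abundant genes narrow: among protein-coding genes whose counts summed to 1000 or more, as those of 42 of the 46 did, 46.5% were lower. The counts below therefore rest on size too: a gene was counted as lower where it was at least 20% below DMSO, as higher where it was at least 25% above, and in both cases where its interval excluded 0. These bounds are the same step on the log2 scale. This held for 31 of the 46 genes, all lower, or 67.4%, against 14.1% lower and 16.8% higher of all measured genes and 18.3% lower among the abundant protein-coding genes. A difference of 2-fold was reached by 0 of the 46, against 1.29% lower and 4.02% higher of all measured genes. The standard deviation of the members' log2 ratios was 0.20, against 0.33 over the abundant protein-coding genes and 0.52 over all measured genes, and 38 of the 46 lay among the lowest 25% of all measured genes.

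**Figure D1:**
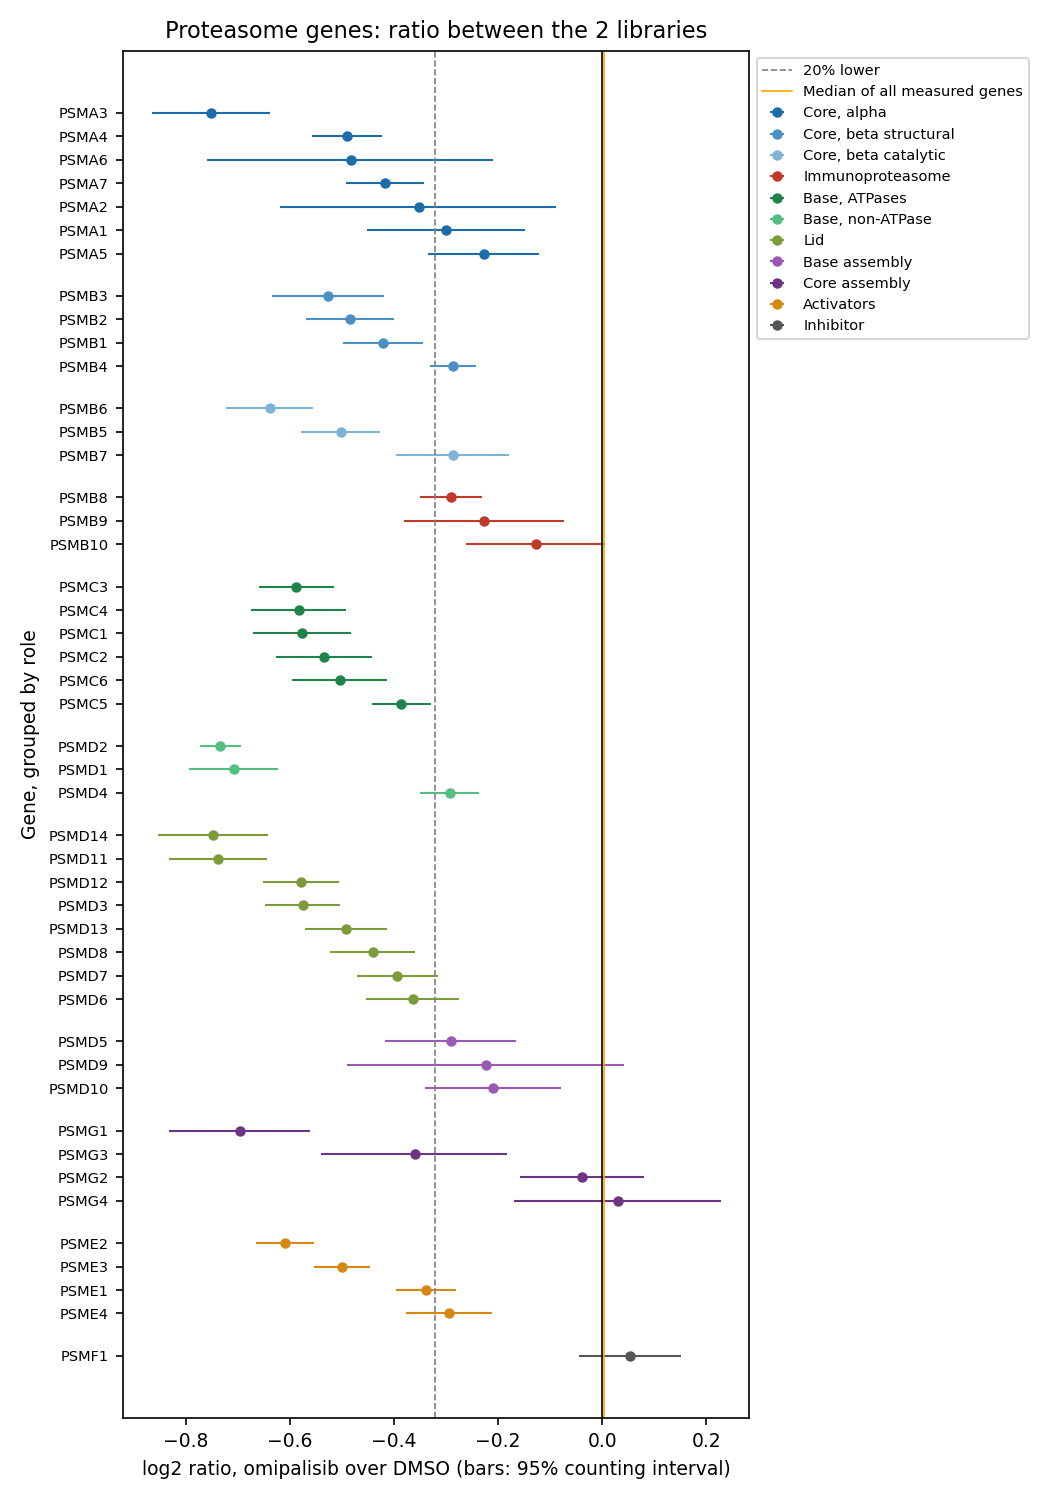
Log2 ratio of the omipalisib over the DMSO library (horizontal axis) for the 46 measured proteasome genes (vertical axis), grouped and coloured by role, with 95% counting intervals as bars, a dashed line at 20% lower and an orange line at the median of all measured genes. PSMA3 (−0.75) sits furthest to the left, all plotted ATPase and lid genes lie left of the dashed line, and the intervals of PSMD9, PSMB10, PSMG2, PSMG4 and PSMF1 hold 0.

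Levels per exon length, in TPM (counts divided by exon length and scaled to a common total), spread widely among genes whose products are built into the same complex. In DMSO they ran from 4.09 TPM for PSMD9, a chaperone of base assembly, to 582 TPM for PSMB4, a structural beta subunit, and 20 of the 46 were above 100 TPM. Among the 14 constitutive core genes alone the range was 5.77 TPM for PSMA6 to 582 TPM for PSMB4. PSMA6 (287 and 182 counts) and PSMA2 (291 and 202 counts) both encode alpha subunits that every core contains, and their counts were the lowest of the core. Both share exon sequence on their strand with another annotated gene, over 14.1% of the exon length for PSMA6 and 14.8% for PSMA2. Those partners had 3 counts or fewer in each library. In all, 8 of the 46 genes share exon sequence on their strand, among them PSMD9 over 14.9%, PSME2 over 2.15% and PSMF1 over 1.51% of the exon length. Whether shared fragments, or for PSMA6 its processed pseudogene PSMA6P1, lowered these levels was not tested. Across the 46 genes the log2 ratio had a Pearson correlation of −0.35 and a Spearman correlation of −0.32 with the log2 level in DMSO, a Pearson correlation of 0.081 with log2 exon length, and a Pearson correlation of 0.29 and a Spearman correlation of 0.33 with the share of exon length that overlaps another gene. These are descriptions over genes of the same libraries, whose level in DMSO also enters the ratio.

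**Figure D2:**
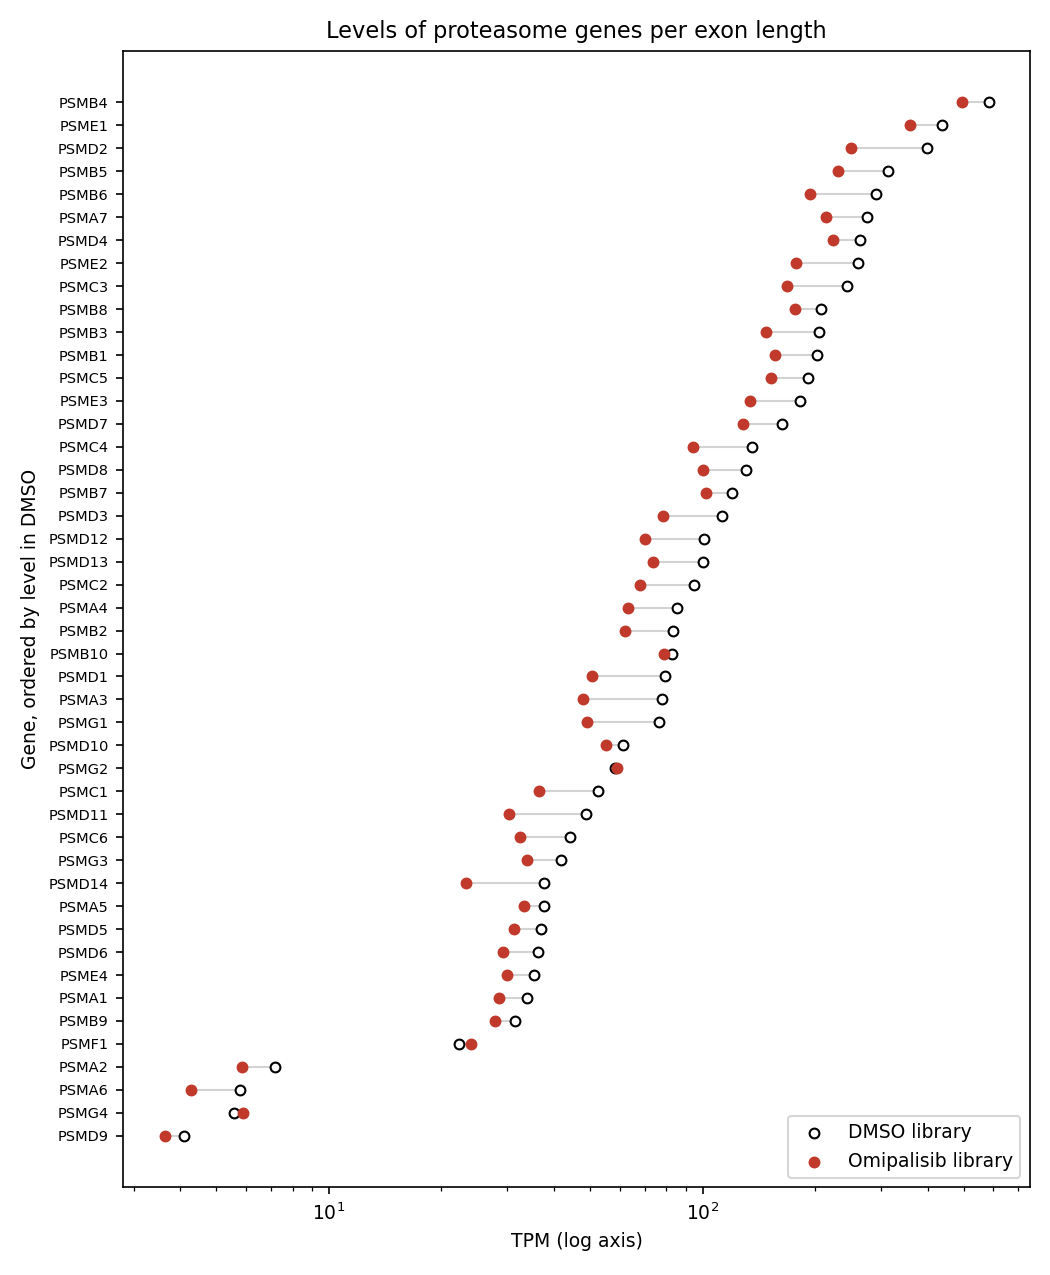
Level of each measured proteasome gene in TPM (logarithmic horizontal axis), with open circles for the DMSO library and filled circles for the omipalisib library; genes are ordered by their DMSO level (vertical axis). The filled circle lies to the left for nearly every gene, and the lowest levels belong to PSMD9, PSMG4, PSMA6 and PSMA2.

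The constitutive core was lower as a whole. Its 14 measured genes had a median log2 ratio of −0.45 and a summed ratio of −0.42 (−0.45 to −0.40), and 10 of the 14 were at least 20% lower. Among the 7 alpha genes, which form the outer rings and the gate of the barrel, 5 were. PSMA3 had 1848 counts in DMSO and 973 in omipalisib, 77.8 and 48.0 TPM, and its log2 ratio of −0.75 (−0.87 to −0.64) was the lowest of all members. PSMA4 (4561 and 2879 counts, −0.49), PSMA6 (−0.48), PSMA7 (3693 and 2452 counts, −0.42) and PSMA2 (−0.35) were also past 20% lower, though for PSMA2 and PSMA6 the low counts gave wide intervals, from −0.62 to −0.089 and from −0.76 to −0.21. PSMA1 (854 and 615 counts) at −0.30 and PSMA5 (1646 and 1246 counts) at −0.23 had intervals below 0 and did not reach that size. PSMA1 shares 24.7% of its exon length with another gene on its strand.

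The 4 structural beta genes had a median of −0.45. PSMB3 (1830 and 1126 counts, −0.53), PSMB2 (2881 and 1826 counts, −0.48) and PSMB1 (3425 and 2267 counts, −0.42) were past 20% lower. PSMB4, the highest of all members in TPM, with 9457 and 6874 counts, was at −0.29 (−0.33 to −0.24). Of the 3 catalytic genes, PSMB6, which carries the caspase-like site, had 3210 counts in DMSO and 1828 in omipalisib, a log2 ratio of −0.64 (−0.72 to −0.56). PSMB5, the chymotrypsin-like subunit and the target of bortezomib, had 3712 and 2323 counts, a ratio of −0.50 (−0.58 to −0.43). PSMB7, the trypsin-like subunit, had 1641 and 1192 counts and was at −0.29 (−0.40 to −0.18), so its interval did not overlap those of the other catalytic genes.

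The regulatory particle held most of the lowest ratios. Its 17 genes taken by symbol had a median of −0.58 and a summed ratio of −0.55 (−0.57 to −0.53), and 16 of the 17 were at least 20% lower. The summed counts of the regulatory particle were 1.79 times those of the constitutive core in DMSO and 1.64 times in omipalisib, and the log2 ratio of these ratios, which needs no scaling between libraries, was −0.12 (−0.15 to −0.10). Gene by gene the groups overlapped: 12 of the 17 regulatory genes lay below the median of the core.

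All 6 ATPase genes were past 20% lower and lay close together, from −0.59 to −0.39. PSMC3 had 4237 and 2500 counts (−0.59), PSMC4 2649 and 1568 (−0.58), PSMC1 2457 and 1460 (−0.58), PSMC2 2558 and 1566 (−0.53), and PSMC6 2528 and 1580 (−0.50). PSMC5, the most abundant of them by counts, had 6273 and 4257 and the highest ratio, −0.39 (−0.44 to −0.33), and its interval overlapped only that of PSMC6. The other base genes differed from one another. PSMD2, a scaffold that docks ubiquitin-like domains, had 15138 counts in DMSO and 8070 in omipalisib, or 399 and 249 TPM, with a ratio of −0.73 (−0.77 to −0.69). PSMD1, the scaffold paired with it, had 3149 and 1709 counts and a ratio of −0.71 (−0.79 to −0.62). Counts of PSMD2 over PSMD1 were 4.81 in DMSO and 4.72 in omipalisib, a log2 change of −0.026 (−0.12 to 0.069). PSMD4, a receptor for ubiquitin chains, had 6086 and 4404 counts and was at −0.29 (−0.35 to −0.24), the only 1 of the 17 short of 20% lower.

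All 8 lid genes taken by symbol were past 20% lower, with a median of −0.53. The lid subunit SEM1, which the symbol rule leaves out, fell short of that size at −0.29 (−0.43 to −0.16). PSMD14, the metalloprotease that cuts the ubiquitin chain off the substrate, had 2102 counts in DMSO and 1110 in omipalisib, a ratio of −0.75 (−0.85 to −0.64). PSMD11, a scaffold subunit of the lid, had 2642 and 1404 counts, a ratio of −0.74 (−0.83 to −0.64). Next came PSMD12 (4108 and 2438 counts) and PSMD3 (4261 and 2535 counts), both at −0.58, with intervals of −0.65 to −0.51 and −0.65 to −0.50 that met those of PSMD14 and PSMD11 only at their ends. PSMD13 (3322 and 2094 counts, −0.49), PSMD8 (3105 and 2028 counts, −0.44), PSMD7 (3359 and 2267 counts, −0.39), the inactive partner of PSMD14, and PSMD6 (2523 and 1738 counts, −0.36) completed the 8.

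Assembly genes varied in ratio. Of 7, which chaperone the rings and leave the finished particle, 2 were at least 20% lower, 4 had an interval below 0, and the median was −0.22. The standard deviation of their log2 ratios was 0.24, beside 0.25 for the 3 non-ATPase base genes. It was 0.33 for the 4 PSMG genes and 0.044 for the 3 base chaperones. The assembly genes' summed counts gained on those of the core, by 0.15 (0.093 to 0.21) on the log2 scale. PSMG1 and PSMG2 encode the partners of 1 dimer that starts the alpha ring, and their ratios differed. PSMG1 had 1256 counts in DMSO and 687 in omipalisib, a ratio of −0.70 (−0.83 to −0.56), the sixth lowest of all members. PSMG2 had 1229 and 1061 counts, a ratio of −0.038 (−0.16 to 0.081), so the intervals of the partners did not overlap. PSMG3 and PSMG4 form a second dimer at the same ring. PSMG3 had 630 and 435 counts (−0.36, −0.54 to −0.18) and PSMG4 had 443 and 401 (0.030, −0.17 to 0.23). Their intervals missed each other only narrowly, and PSMG4 was at −0.031 with the trend over exon length removed. The base chaperones PSMD5 (1242 and 900 counts), PSMD9 (274 and 208) and PSMD10 (1119 and 858) were at −0.29, −0.22 and −0.21, and the interval of PSMD9 reached 0.041.

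**Figure D3:**
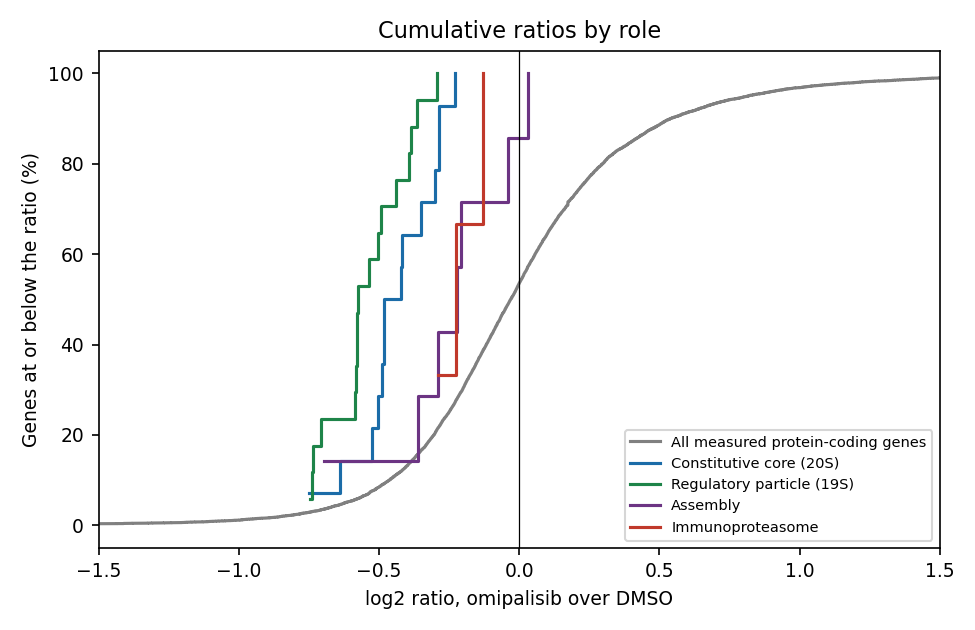
Share of genes (vertical axis, percent) at or below each log2 ratio (horizontal axis) for the constitutive core, the regulatory particle, the assembly genes, the immunoproteasome subunits and all measured protein-coding genes. The regulatory particle has the lowest median, −0.58, against −0.45 for the core, −0.22 for the assembly genes and −0.23 for the immunoproteasome subunits.

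All 4 activator genes had intervals below 0, and 3 were at least 20% lower, while the inhibitor gene was near 0. PSME1 and PSME2 encode the subunits of an interferon-inducible cap that opens the core without ATP. PSME2 had 7128 counts in DMSO and 4143 in omipalisib, a ratio of −0.61 (−0.66 to −0.55). PSME1 had 5943 and 4166 counts, a ratio of −0.34 (−0.40 to −0.28). PSME2 was thus counted 1.20 times as often as PSME1 in DMSO and 0.994 times in omipalisib, a log2 change of −0.27 (−0.35 to −0.19) within the cap. PSME3, the nuclear relative of these, had 7169 and 4497 counts, a ratio of −0.50 (−0.55 to −0.45). PSME4, a single-chain activator, had 2815 and 2036 counts and was at −0.29 (−0.38 to −0.21), short of 20% lower. PSMF1, an inhibitor of the core in vitro, had 1765 and 1624 counts and was at 0.054 (−0.045 to 0.15), the highest ratio of the 46.

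The immunoproteasome subunits were less reduced than the constitutive subunits they replace. PSMB8 had 5528 counts in DMSO and 4008 in omipalisib, or 208 and 176 TPM, with a ratio of −0.29 (−0.35 to −0.23). PSMB9 had 801 and 607 counts, or 31.4 and 27.9 TPM, with a ratio of −0.23 (−0.38 to −0.072). PSMB10 had 1028 and 834 counts, or 82.7 and 78.6 TPM, and a ratio of −0.13 (−0.26 to 0.0052). None of the 3 was 20% lower. Of the 14 constitutive core genes 10 were, while PSMA1 (−0.30), PSMB7 (−0.29), PSMB4 (−0.29) and PSMA5 (−0.23) were not. All 3 were counted in the DMSO library, which thus held RNA for both kinds of catalytic subunit. Within each library the immuno subunit was then set against its counterpart, which needs no scaling. PSMB9 made up 9.76% of the TPM of PSMB9 and PSMB6 in DMSO and 12.6% in omipalisib, and the count ratio of the pair was higher in omipalisib by 0.41 (0.24 to 0.59) on the log2 scale. PSMB8 made up 39.9% and 43.4% of its pair with PSMB5, a change of 0.21 (0.12 to 0.31). PSMB10 made up 40.8% and 43.5% of its pair with PSMB7, a change of 0.16 (−0.013 to 0.33), whose interval held 0. Summed over the pairs the immuno share of TPM was 30.8% in DMSO and 35.0% in omipalisib. The ratio of the summed counts, not set per length, was 0.859 in DMSO and 1.02 in omipalisib. Its log2 change was 0.25 (0.18 to 0.32). All 6 genes of the pairs had ratios below 0, and in each pair the constitutive gene had the lower one.

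**Figure D4:**
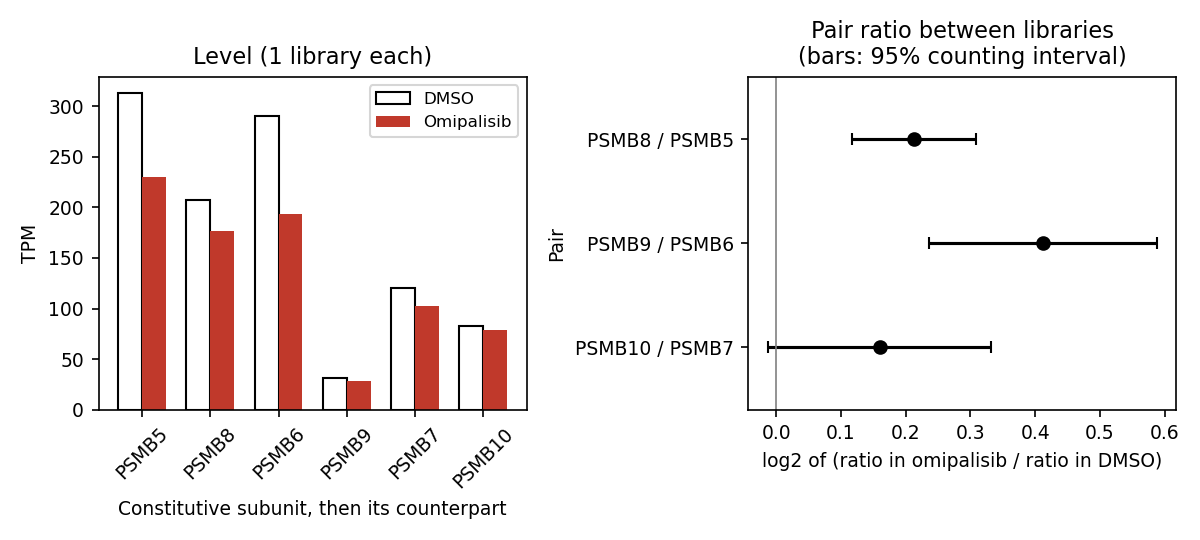
Left, level in TPM (vertical axis) of each constitutive catalytic subunit and of the immuno subunit that replaces it, in DMSO (open bars) and omipalisib (filled bars), 1 library each. Right, log2 change of the ratio of each pair (horizontal axis) with its 95% counting interval: 0.41 for PSMB9 over PSMB6, 0.21 for PSMB8 over PSMB5 and 0.16 for PSMB10 over PSMB7.

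Set against the whole constitutive core, the summed counts of the immunoproteasome subunits gained 0.17 (0.11 to 0.22), close to the 0.15 of the assembly genes. PSMB8 and PSMB9 lie side by side within the MHC class II region, and PSMB9 shares a promoter with TAP1, a subunit of the transporter that carries peptides to class I molecules. The counts of PSMB9 relative to PSMB8 changed by 0.064 (−0.10 to 0.23) and relative to TAP1 by 0.054 (−0.12 to 0.22), both within counting error. PSMB9 shares 5.21% of its exon length with PSMB8-AS1 on its strand, and PSMB10 shares 39.4% with another gene that had 121 and 102 counts. How far shared fragments bear on these genes' counts was not tested.

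Other genes of the ubiquitin and proteasome pathway were taken from lists, to show how far the lower counts reached beyond the members. Of 4 subunits and assembly factors that carry other symbols, POMP, which chaperones the beta ring, had 1492 and 936 counts (−0.50, −0.62 to −0.38). ADRM1, a ubiquitin receptor of the base, had 3107 and 2016 counts (−0.45, −0.53 to −0.37). SEM1, a small lid subunit, was at −0.29 (−0.43 to −0.16) and PAAF1, a base chaperone, at −0.093 (−0.31 to 0.12), and the list's median was −0.37. Of 14 deubiquitinases, shuttle receptors and other proteins that act at the proteasome, 3 were at least 20% lower and 0 at least 25% higher, with a median of −0.21. The share lower was 21.4%, against 14.1% of all measured genes and 18.3% of the abundant protein-coding genes. The 3 were ZFAND2A (143 and 86 counts, −0.56), UCHL5, a deubiquitinase held by ADRM1 (2397 and 1540 counts, −0.46), and RAD23B, a shuttle for ubiquitinated proteins (−0.38), which is named after its value was seen. USP14, the other deubiquitinase of the base, was at −0.22 (−0.28 to −0.16).

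The ubiquitin genes stood nearer to 0. Of the 4 genes that encode ubiquitin and the 2 E1 enzymes that activate it, 0 passed the size bound in either direction, and the median was −0.17. Of 31 E2 conjugating enzymes, 7 were at least 20% lower and 0 at least 25% higher, with a median of −0.10. The lowest were UBE2S (2879 and 1495 counts, −0.77) and UBE2C (1705 and 1037 counts, −0.54), which both work with the anaphase-promoting complex in mitosis. Beside backgrounds of 14.1% lower of all measured genes and 18.3% of the abundant protein-coding genes, these lists had 0 of 6 and 22.6%. The intervals of all 6 ubiquitin and E1 genes lay below 0, as did those of 46.5% of the abundant protein-coding genes.

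NFE2L1, which drives proteasome genes in the bounce-back response, is made in the endoplasmic reticulum, drawn out by VCP and cut by DDI2. NFE2L1 RNA was near 0 in log2 ratio, at 8273 and 6842 counts (−0.10, −0.15 to −0.054, and −0.051 when scaled by total counts), as was that of its relative NFE2L2, at 3288 and 2713 counts (−0.10, −0.18 to −0.030). DDI2 was at 0.20 (0.12 to 0.27), from 2805 and 2854 counts, and at 0.12 with the trend over exon length removed. NFE2L2 and DDI2 share 18.6% and 15.2% of their exon length with another gene on their strand. VCP, the segregase, was lower, with 11911 and 6868 counts (−0.62, −0.66 to −0.58), and so was its cofactor UFD1, with 1127 and 676 counts (−0.56, −0.70 to −0.42). MAFF, a partner of NFE2L1 on DNA, was higher at 0.68 (0.30 to 1.07), from only 97 and 138 counts. Of 13 genes on this route, 2 were at least 20% lower and 1 at least 25% higher, with a median of −0.091. The share lower was 15.4%, near the 14.1% of all measured genes. The RNA does not measure the processing or activity of NFE2L1.

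Class I loading and interferon genes give the setting of the immunoproteasome subunits. Of 15, 3 were at least 20% lower, 1 was higher and the median was −0.17. The 3 of 15 were 20% of the list, near the 14.1% of all measured genes and the 18.3% of the abundant protein-coding genes. CALR and PDIA3, chaperones of the endoplasmic reticulum that also serve class I loading, were the lowest, at −1.02 (34968 and 15329 counts) and −0.59 (10012 and 5888 counts). IRF1, an interferon-induced transcription factor that drives PSMB9, had 1433 and 1096 counts (−0.21, −0.33 to −0.099). TAP1 was at −0.28 (−0.35 to −0.21), beside −0.29 for PSMB8. NLRC5, the transactivator of class I genes, was higher, with 2127 and 2405 counts and a ratio of 0.35 (0.27 to 0.44).

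**Figure D5:**
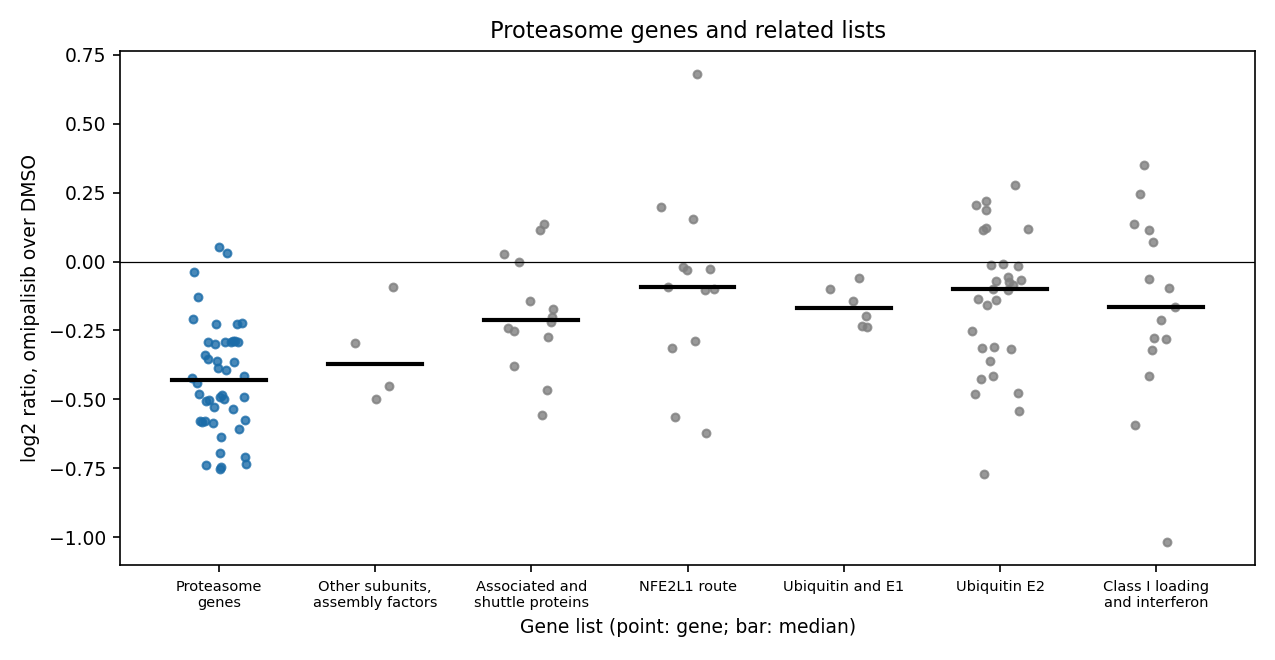
Log2 ratio of omipalisib over DMSO (vertical axis) for the proteasome genes and for 6 related lists (horizontal axis); each point is a gene and each bar the list's median. The proteasome genes have the lowest median, −0.43, and the list of other subunits and assembly factors is next, at −0.37.

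The genes matched by name alone differed from each other. PSMC3IP, a cofactor of meiotic recombinases, had 970 and 485 counts, a ratio of −0.83 (−0.99 to −0.67). PSME3IP1, a binding partner of PSME3, had 2099 and 1701 counts, a ratio of −0.13 (−0.22 to −0.037). Neither was counted among the 46. Processed copies could take reads from members. Of 44 pseudogenes named after 17 members, 13 had any count, and these summed to 572 in DMSO and 315 in omipalisib, or 0.386% of the members' counts in DMSO. For a single member a copy can weigh more. PSMA6P1, the most counted copy, had 178 and 115 counts (−0.45), beside 287 and 182 for PSMA6 (−0.48). Whether it took reads from PSMA6 was not tested. Fragments that align to several copies may have been dropped in counting, so members with copies may be undercounted.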

How the data were processed

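RNA was measured in 1 library of DMSO-treated and 1 of omipalisib-treated cells; per the labels' protocols, the libraries were strand-specific. The authors deposited raw counts per gene. Per the file headers, these came from featureCounts 2.0.1 on exons grouped by gene, with strand setting 2 and both ends aligned. No option for fragments with several alignments is recorded, and the aligner is not given in the sources used here. Fragments shared by genes that overlap on 1 strand are left out by that tool's default, which lowers such genes. The submitters' processing notes name hg19 and GRCh37, but 58476 of the 58516 genes found in GENCODE release 29 overlap their GRCh38 position there. Symbols were taken from that release and from a table of gene names.

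Counts were scaled with TMM factors (0.983 for DMSO, 1.02 for omipalisib; edgeR 4.0.16, R 4.3.3), and 0.5 was added before each log2 ratio. Intervals are exact Clopper-Pearson intervals, and those of pair ratios are exact conditional intervals of the odds ratio. The libraries carry no stated molecular identifiers, so reads may repeat molecules and the intervals cover counting error only. A gene at 3 counts is at 0.114 CPM in DMSO and 0.133 CPM in omipalisib. TPM was computed from the counts and the exon lengths in the files. The ratio and call steps were run on simulated counts of 15686 genes with counting error only and known totals. Of 50 genes set 0.5 lower on the log2 scale, 94% were called at least 20% lower. The simulation tests neither the scaling nor the spread between cultures. The members and lists were chosen with earlier results of these data known. Every measured gene matched by symbol is named. Of each related list the text names the 2 lowest and 2 highest past the size bound, and POMP, SEM1, ADRM1, PAAF1, NFE2L1, NFE2L2, DDI2, USP14, UCHL5, TAP1, IRF1 and NLRC5 whatever their values; some genes of the lists are not reported here. The 9 alternatives covered the scaling (total counts, upper quartile, DESeq2 1.42.0 size factors), the added count, the minimum count, thinning, a length trend and overlapping genes.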

Additional observations from a re-analysis of the deposited data

How the results depend on the processing

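No paired analysis was possible because each group has 1 library, and for the same reason no replicate could be left out. Under all 9 alternatives 0 members were at least 25% higher. The number at least 20% lower was 27 with total counts, 38 with DESeq2 size factors, 29 of 42 where counts had to sum to 1000, 28 of 38 without same-strand overlap, and 31 otherwise; the median ran from −0.49 to −0.38. No scaling moved the median of all measured genes by more than 0.049. Of the assembly genes, 1 was at least 20% lower with total counts (2 as reported), and of the immunoproteasome subunits 1 was with DESeq2 size factors (0 as reported). Calls near the threshold moved with the scaling: with total counts PSMD6, PSMG3, PSMA2 and PSME1 fell short of it, and with DESeq2 size factors PSMD4, PSMB4, PSME4, PSMB8, SEM1, PSMD5, PSMB7 and PSMA1 passed it, 4 genes of the NFE2L1 route were lower (2 as reported) and NLRC5 fell short. With the length trend removed, PSME1 and NLRC5 fell short and PSME4 and SEM1 passed. The ratios of PSMG2, PSMG4 and PSMF1, all close to 0 and uncalled, changed sign under at least 1 setting each. Depth limits PSMA2, PSMA6 and PSMD9, and the absence of replicates limits every value: the spread between cultures is unknown.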

Other observations

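The noncoding genes with more than 3 counts that lie beside members and carry their names did not share the lower counts. They are named after their values were seen. Of the 15660 measured genes, 2627 were at least 25% higher and 2213 at least 20% lower. Of the 12260 protein-coding ones, 1859 were higher and 1980 lower, so the other measured genes were more often higher than lower. Whether the contrast below is particular to these neighbours was not tested. PSMA3-AS1, antisense to the end of PSMA3, had 1127 counts in DMSO and 1530 in omipalisib, a log2 ratio of 0.61 (95% counting interval 0.50 to 0.73), against −0.75 for PSMA3. PSMG3-AS1 had 126 and 172 counts, a ratio of 0.62 (0.28 to 0.97), against −0.36 for PSMG3. PSMB8-AS1 had 976 and 1007 counts, a ratio of 0.22 (0.090 to 0.35), against −0.29 for PSMB8. The libraries were strand-specific and counted by strand, so fragments of these antisense genes are kept apart from those of PSMA3, PSMG3 and PSMB8. PSMD6-AS2, with 73 and 74 counts, was at 0.19 (−0.29 to 0.68), an interval that holds 0. The other 3 named noncoding neighbours (PSMD14-DT, PSMD7-DT and PSMD6-AS1) had 3 counts or fewer in each library and give no ratio.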
